A study of Rattus norvegicus with 158 samples.

Results

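The data on 7 genes of autophagy and the lysosome, of 14217 genes tested, were examined in rat thigh muscle across 21 compounds. They were Sqstm1, Bnip3, Ctsl, Gabarapl1, Ulk1, Atg12 and Gpnmb, each read from the probe set that carries that gene symbol alone and has the highest mean over the arrays. Each array came from 1 male Sprague-Dawley rat: 122 animals received a compound by gavage every day, and 36 received the vehicle alone. Rats were 6 to 8 weeks old at purchase and were sampled after 3 d or 5 d. Doses, 1 per compound, ranged between 47 and 2500 mg/kg, in Water or in the vehicle labelled CMC. The controls comprised 18 Water arrays, 12 CMC arrays and 6 arrays of a mixture, CMC/SDS/Povidone, which served no compound.

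Autophagy delivers cell contents to the lysosome: a kinase complex starts a membrane sac, ubiquitin-like conjugation closes it around cargo held by receptor proteins, and lysosomal hydrolases degrade what arrives. In skeletal muscle the pathway is known to be raised by fasting and by disuse, and its genes respond to FoxO factors and to the TFEB family. Ulk1 is the kinase that starts the process, Atg12 belongs to the conjugation system, and Gabarapl1 is one of the ATG8 proteins that coat the sac. Sqstm1 (p62) carries ubiquitinated cargo and Bnip3 marks mitochondria for removal. Ctsl encodes the protease cathepsin L, and Gpnmb is a membrane glycoprotein of lysosomes and melanosomes, known to be high in lipid-loaded macrophages.

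Of 147 pairs of gene and compound, 6 were called, all of them higher in treated muscle. A call needed a fold of at least 1.5 and an adjusted p no higher than 0.01 in limma, with time as a covariate and the Benjamini-Hochberg method across every gene tested. Of the 6 calls, 5 belonged to Dicyclomine, an antimuscarinic drug for gut spasm, and 1 to Etidronate, a bisphosphonate. Dicyclomine also called 5.64% of all genes, 2.88% higher and 2.76% lower, and Etidronate 2.48%, 0.872% of them higher. In the other 19 compounds no member was called. Because the controls were common to all compounds of a vehicle, values of different compounds are not independent.

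**Figure D1:**
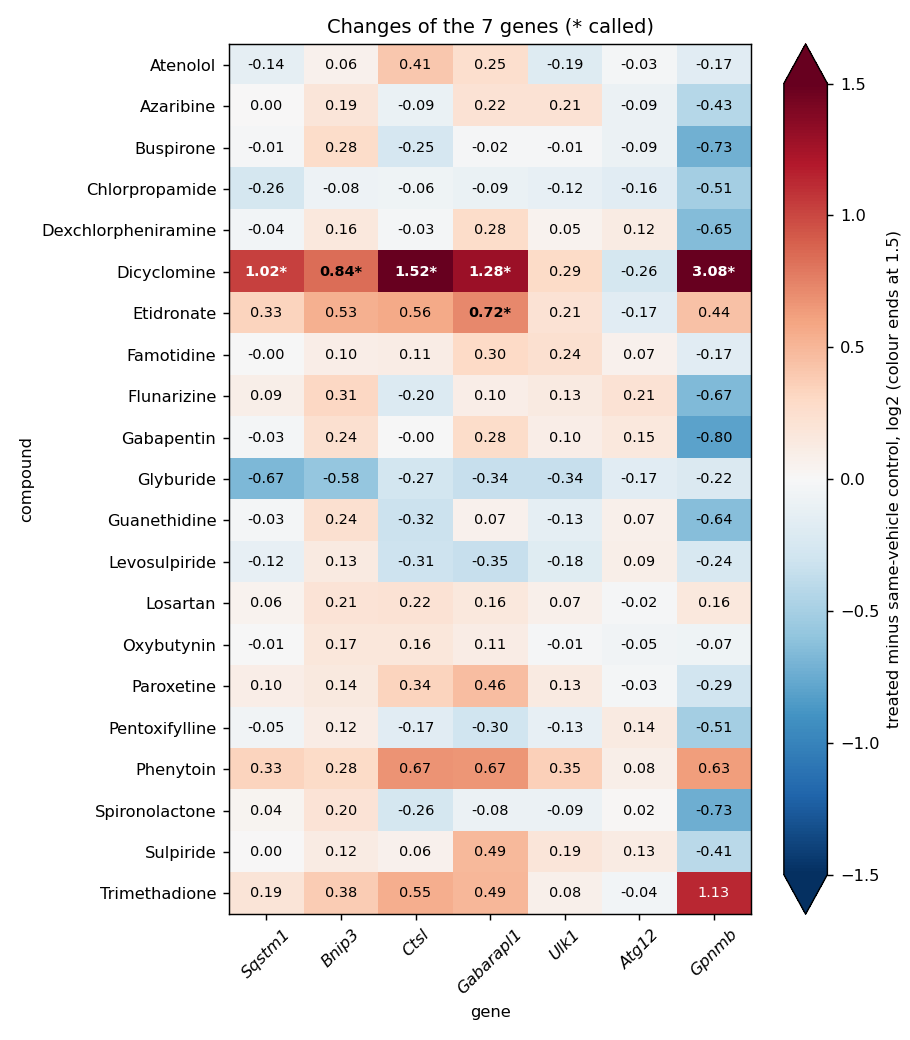
Log2 difference between treated arrays and controls of the same vehicle for the 7 genes (columns) and 21 compounds (rows), with a star on called values. The Dicyclomine row holds 5 of the 6 stars, and Gabarapl1 in Etidronate, at 0.72, holds the other.

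The share of all genes called varied widely among the compounds in which no member was called. It was 5.47% in Levosulpiride, 5.25% in Atenolol, 4.69% in Guanethidine, 4.1% in Glyburide and 3.17% in Chlorpropamide, which were largely extracted in a batch that held no control. In Losartan, Paroxetine, Trimethadione, Buspirone and Gabapentin it was 0.809%, 0.682%, 0.457%, 0.436% and 0.429%. Phenytoin called 0.317%, Sulpiride 0.183% and Flunarizine 0.12%. Oxybutynin, Azaribine, Pentoxifylline and Famotidine called 0.0844%, 0.0422%, 0.0141% and 0.00703%. Dexchlorpheniramine and Spironolactone called 0% of genes.

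The labels gave 7 dates of RNA extraction, named here batches A to G, and controls lay in A, B, C and E only. All 30 arrays of batch D were treated. In batch D the median Sqstm1 level was 11.61 on the log2 scale of the array, beside 11.86 in the 12 CMC controls, and Ulk1 was 8.32 beside 8.61. Of the 15 treated arrays with Ulk1 below every control, 14 were in batch D. The part of the batch in the values of those compounds cannot be told apart from treatment. When a single model of every array carried the extraction batch as a term (the batch block), none of the 6 called values changed sign, but 37 of the 141 uncalled ones did. The difference between the 3' and 5' Gapdh probe sets, a sign of RNA breakdown, exceeded 1 on 3 arrays, Glyburide 5 d replicate 2, at 3.02, Chlorpropamide 3 d replicate 2, at 1.58, and Atenolol 3 d replicate 1, at 1.26. They lay below every control for 4, 4 and 3 of the genes. On the same arrays 17.3%, 17% and 12.9% of all genes were above every control, and the share of all genes below is not given here. As a check of the tissue, the muscle fibre markers Acta1 and Ckm averaged 14.56 and 14.59.

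Gpnmb showed the largest difference. In Dicyclomine it stood at 8.61 and 7.88 on the 3 d arrays and at 11.39 and 12.85 on the 5 d arrays, while the 18 Water controls ran from 5.99 through a median of 6.97 to 8.61. Both 5 d animals lay far above every control, 3 d replicate 1 lay at the level of the highest control, and 3 d replicate 2 lay within the range. The mean difference was 3.08 on the log2 scale (SE 0.52, n = 4 against 18, adjusted p = 0.000256), an 8.45-fold change with a 95% interval from 4.03 to 17.74. The change was 1.37 at 3 d and 4.79 at 5 d, and the difference of 3.42 between the times passed limma's interaction test (adjusted p = 0.0111), as did 3.98% of all genes in this compound.

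**Figure D2:**
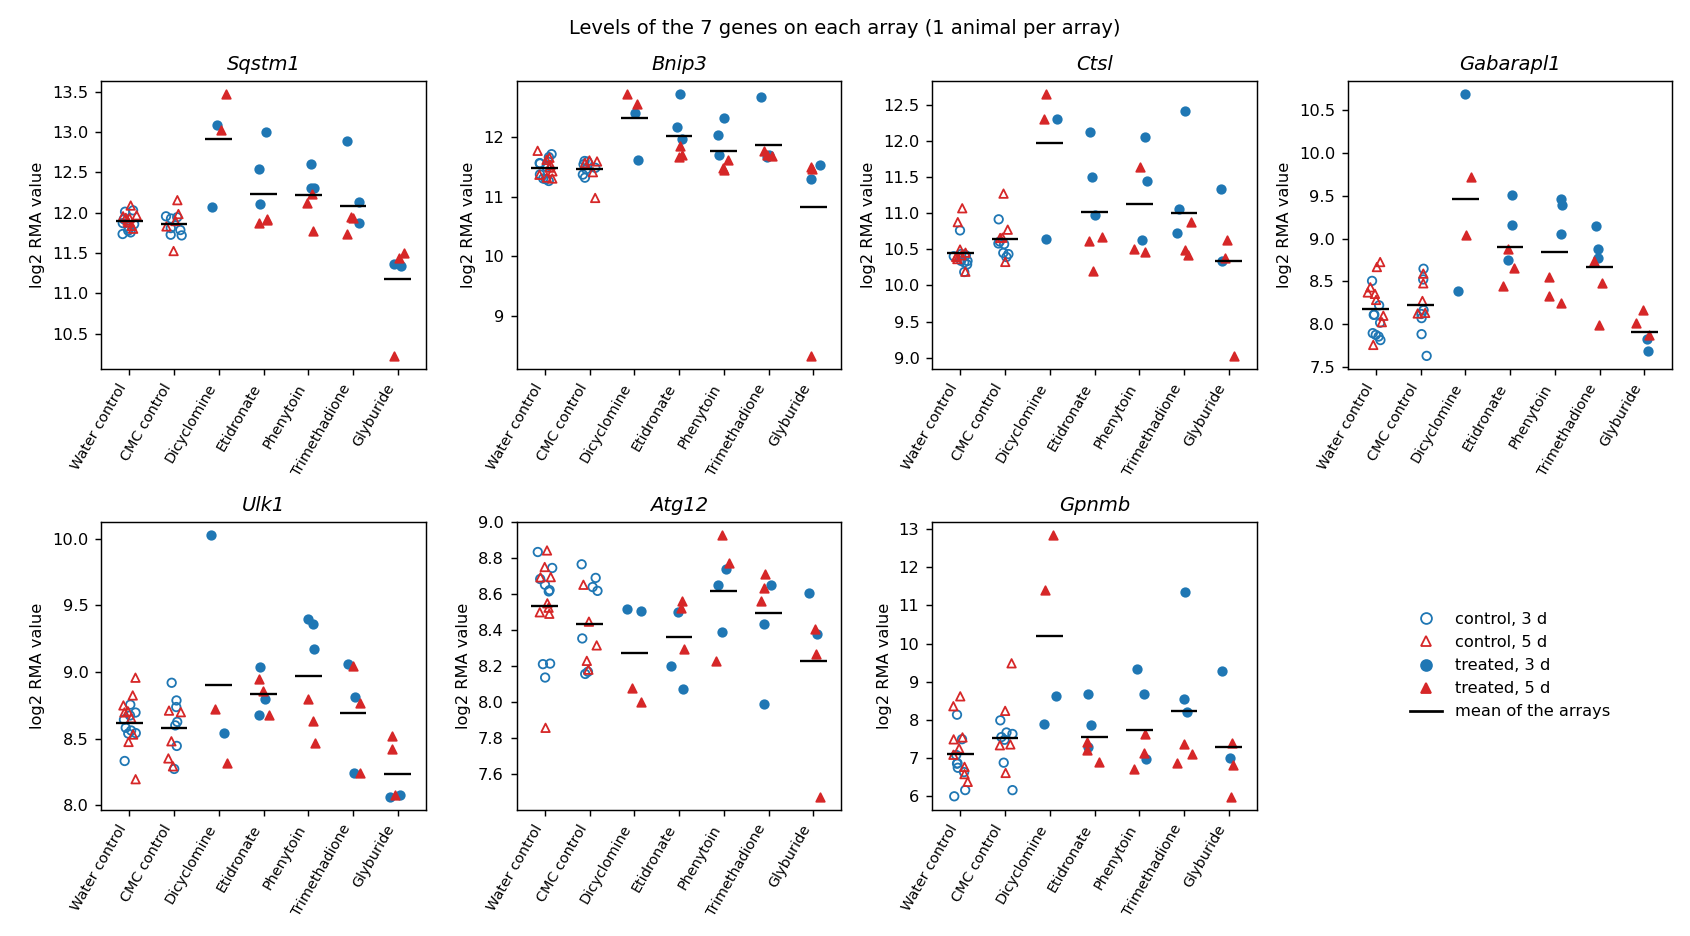
Log2 RMA value of each gene (one panel each) on every array of the Water and CMC controls and of 5 compounds, circles for 3 d, triangles for 5 d, with the mean as a bar. For Gpnmb the 2 Dicyclomine 5 d arrays sit at 11.39 and 12.85, above every control.

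The window of 250 bases before to 50 after the Gpnmb start is shown because it holds matches to motifs of regulators named in the background (RefSeq, GRCr8, chr4:79340878-79341177, plus strand). Capitals mark TCACATGA, a sequence bound by the MITF and TFE family, at bases -23 to -16, and GTAAACA, the FoxO core, at -109 to -103.
Gpnmb: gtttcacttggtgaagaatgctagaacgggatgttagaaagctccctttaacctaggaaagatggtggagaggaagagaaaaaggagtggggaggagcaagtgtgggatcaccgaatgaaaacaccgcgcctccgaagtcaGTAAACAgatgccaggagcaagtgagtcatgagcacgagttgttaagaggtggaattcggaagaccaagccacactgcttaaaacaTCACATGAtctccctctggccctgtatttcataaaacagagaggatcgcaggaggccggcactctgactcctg
Searched on both strands, TCACATGA was present in 1.16% and GTAAACA in 3.78% of 33469 such windows, and no other member held either. A match is a description of the letters and not a measured site.

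Ctsl, unlike Gpnmb, was already at its 5 d level on one of the 3 d animals. Its Dicyclomine values were 12.30 and 10.64 at 3 d and 12.30 and 12.65 at 5 d, against Water controls from 10.19 through a median of 10.40 to 11.07. The array that stayed within the controls was 3 d replicate 2, the same animal in which Sqstm1 and Bnip3 were lowest. The difference was 1.52 (SE 0.20, adjusted p = 3.16e-05), or 2.87-fold, with an interval from 2.14 to 3.84. The second Ctsl probe set differed by 1.00 and was also called.

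The Ctsl window is shown for its pair of TGACNNNGC matches, the core of the antioxidant response element bound by NRF2 (RefSeq, GRCr8, chr17:769854-770153, plus strand). Capitals mark these at -141 to -133 and -86 to -78, and ACGTG, the hypoxia core, at bases 36 to 40 after the start.
Ctsl: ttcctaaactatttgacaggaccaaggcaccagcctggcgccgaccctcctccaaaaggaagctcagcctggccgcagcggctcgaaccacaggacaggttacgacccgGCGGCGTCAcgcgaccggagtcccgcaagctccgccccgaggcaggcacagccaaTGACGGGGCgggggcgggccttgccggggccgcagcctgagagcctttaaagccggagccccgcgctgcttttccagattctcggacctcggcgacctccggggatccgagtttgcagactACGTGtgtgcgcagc
Of all windows 12.1% held TGACNNNGC and 19.3% held ACGTG on either strand, and Ctsl was the only member with the former.

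Gpnmb and Ctsl varied together from array to array. Pearson's r between their log2 values was 0.75 over all arrays, 0.74 after the mean of each batch was subtracted, 0.69 without Dicyclomine, and 0.84 over the 36 controls. These points share arrays and normalization, so r is given as a description. No other pair of members had a higher r among controls, where the next was Sqstm1 with Bnip3 at 0.47. In the other sets Sqstm1 with Bnip3 was higher, at 0.779 over all arrays, 0.785 after batch means were subtracted and 0.771 without Dicyclomine. Those sets held the arrays with a Gapdh difference above 1.

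**Figure D3:**
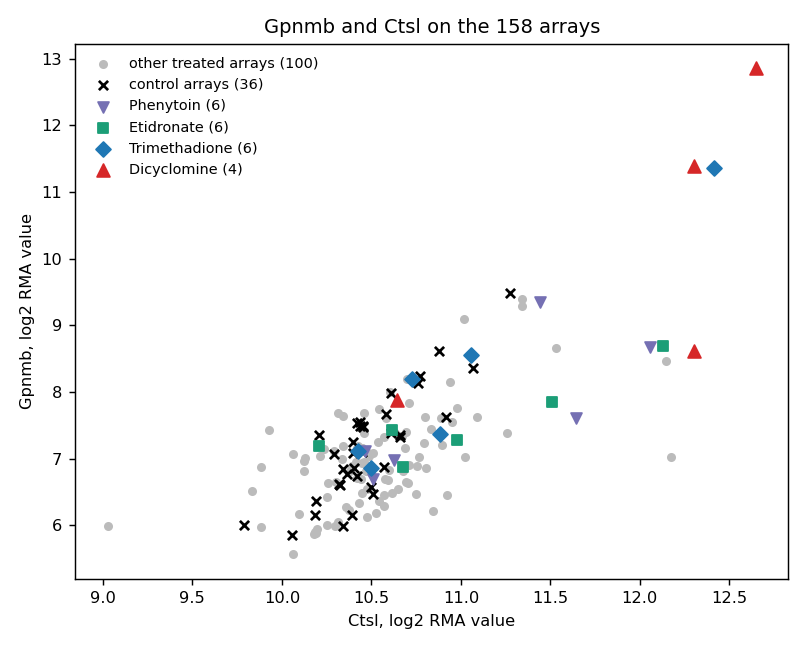
Log2 RMA values of Gpnmb against Ctsl on every array, by compound for Dicyclomine, Etidronate, Phenytoin and Trimethadione. The upper right corner holds both Dicyclomine 5 d arrays and 1 Trimethadione array, at 12.41 for Ctsl and 11.36 for Gpnmb.

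The cargo receptors moved less. Sqstm1 was at 13.09 and 12.07 on the 3 d Dicyclomine arrays and at 13.02 and 13.47 at 5 d, and the Water controls spanned 11.73 to 12.09 with a median of 11.89. Of the 4 animals, 3 were above every Water control, and the remaining one lay within their range. The difference of 1.02 (SE 0.13, adjusted p = 1.81e-05) was a 2.03-fold rise with an interval from 1.69 to 2.44. Of the other 3 Sqstm1 probe sets 1 was called, at 1.31, and the other 2 differed by 0.13 and 0.09.

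Bnip3, the mitochondrial receptor, stood at 12.41 and 11.62 at 3 d and at 12.72 and 12.57 at 5 d, against controls from 11.27 through a median of 11.50 to 11.78. The same 3 animals exceeded every control. The difference was 0.84 (SE 0.13, adjusted p = 9.86e-05), a 1.79-fold rise with an interval from 1.49 to 2.15, and it was not called with the batch block, where it was 0.81 (adjusted p = 0.0297). Bnip3 has 1 probe set of its own.

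The Bnip3 window is the only one of the 7 with the palindrome CACGTG, the E-box also read by TFEB, and it is printed for that reason (RefSeq, GRCr8, chr1:203154913-203155212, minus strand). Capitals mark it at -99 to -94, where it overlaps ACGTG on both strands.
Bnip3: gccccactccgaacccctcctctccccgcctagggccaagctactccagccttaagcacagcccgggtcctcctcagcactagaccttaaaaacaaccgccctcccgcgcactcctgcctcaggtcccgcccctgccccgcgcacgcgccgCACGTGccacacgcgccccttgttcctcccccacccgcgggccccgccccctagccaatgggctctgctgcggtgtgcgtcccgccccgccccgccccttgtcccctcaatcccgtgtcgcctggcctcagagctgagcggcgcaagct
CACGTG was present in 6.42% of all windows. ACGTG was also found once each in Gabarapl1 and Atg12, and none of the 5 motifs was found in Sqstm1 or Ulk1.

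Gabarapl1 was the member called in 2 compounds. In Dicyclomine it was at 10.68 and 8.39 at 3 d and at 9.04 and 9.71 at 5 d, with Water controls from 7.76 through a median of 8.11 to 8.73. The highest of these animals was 3 d replicate 1. The difference of Gabarapl1 in Dicyclomine was 1.28 (SE 0.24, adjusted p = 0.000796), and without that animal 0.81, still called (adjusted p = 0.00533). The fold was 2.43 with an interval from 1.71 to 3.45, and the second probe set differed by 1.38.

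In Etidronate Gabarapl1 was at 9.51, 9.16 and 8.75 on the 3 d arrays and at 8.88, 8.66 and 8.44 on the 5 d arrays. Of the 6 animals, 4 were above every Water control, and all 3 of the 3 d animals were among them. The difference was 0.72 (SE 0.14, n = 6 against 18, adjusted p = 0.00186), a 1.65-fold rise with an interval from 1.34 to 2.03. The difference of Gabarapl1 in Etidronate missed the threshold without 3 d replicate 1, at 0.59 (adjusted p = 0.0118), and without 3 d replicate 2, at 0.66 (adjusted p = 0.0104). The second probe set differed by 0.50 and was not called (adjusted p = 0.176 over all single-symbol probe sets). Among cell type markers in Etidronate 2 of 8 fibroblast markers were called lower (list median -0.56), 1 of 6 endothelial markers lower (-0.17), 1 of 18 macrophage markers lower (C1qa at -1.18, list median -0.32) and 1 of 6 neutrophil and mast cell markers higher (0.14). Their part in the Gabarapl1 value was not tested.

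Ulk1 and Atg12, the initiating kinase and the conjugation protein, were called in no compound by the probe set used for each. Ulk1 in Dicyclomine was 10.03, 8.54, 8.32 and 8.72, so 1 animal of the 4, 3 d replicate 1, lay above the highest control at 8.96, and the mean difference of 0.29 (SE 0.18) had an interval from -0.09 to 0.66. Atg12 in Dicyclomine was 8.50 and 8.52 at 3 d and 8.00 and 8.08 at 5 d against controls from 7.86 to 8.84. Its difference was -0.26 (SE 0.14, interval -0.56 to 0.04), and its other probe sets differed by -0.50 and -0.29. Over the 21 compounds Ulk1 ran from -0.34 in Glyburide to 0.35 in Phenytoin and Atg12 from -0.26 in Dicyclomine to 0.21 in Flunarizine. With the batch block Ulk1 changed sign in 9 compounds and was above 0 in all 21, from 0.08 in Spironolactone to 0.60. Atg12 then changed sign in 4 and ran from -0.21 in Dicyclomine to 0.18.

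No member had all 4 Dicyclomine arrays above every Water control, which 0.83% of all genes had. All 4 arrays lay in batch B, which also held 5 Water controls, so batch could be compared directly. With the batch block Gpnmb differed by 2.65, Ctsl by 1.28, Gabarapl1 by 1.12 and Sqstm1 by 0.98, and all 4 were called, in a fit that called 2.15% of genes higher. Restricted to the 4 treated and 5 control arrays of the batch the differences were 2.77, 1.41, 1.16 and 1.06, with 0.85 for Bnip3. These kept their sizes, but adjusted p ran from 0.0897 for Sqstm1 to 0.211 for Gabarapl1 and none was called, and of all genes 0 were called although 2570 had p under 0.05 before adjustment. In a comparison with the 4 Water controls of the compound's own study, chosen after the data were seen, the 5 differences were 0.72 to 2.62. Among 14 such tests over 2 compounds, this one and Trimethadione, the two-sided exact permutation p ran from 0.0571 for Sqstm1 to 0.114 for Bnip3 and Gpnmb among these 5, with 0.0286 the smallest possible. Adjusted over the 14 tests, the permutation p was 0.319 for each of the 5. The permutation had no time term.

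**Figure D4:**
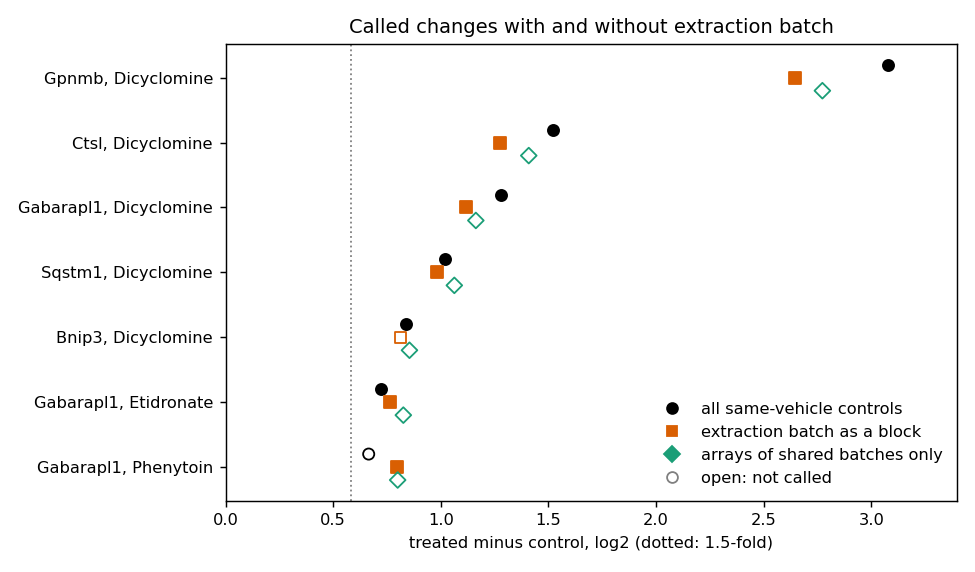
Log2 difference for the called pairs and for Gabarapl1 in Phenytoin, with all controls of the vehicle, with extraction batch as a block and within batches that held both kinds of array, filled where called. The 3 estimates of a pair lie close together, with Gpnmb between 2.65 and 3.08, while no value within shared batches is filled.

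Etidronate and Phenytoin came next to Dicyclomine for several members, at values below the call. In Etidronate, Bnip3 differed by 0.53 (adjusted p = 0.00219, 1.44-fold), Ctsl by 0.56 (adjusted p = 0.0364) and Sqstm1 by 0.33 (adjusted p = 0.0432). For Bnip3 the p passed and the fold did not. Without 3 d replicate 2, Ctsl in Etidronate was 0.35 (adjusted p = 0.155) and Sqstm1 in Etidronate 0.18 (adjusted p = 0.166). Ctsl in Etidronate was 11.51, 12.13 and 10.98 at 3 d and 10.67, 10.62 and 10.21 at 5 d, so the 3 d animals were all above the 5 d ones. The second Ctsl probe set differed by 0.91 over both times and was called (adjusted p = 5.22e-05 over all single-symbol probe sets). The change of the first was 1.15 at 3 d and -0.02 at 5 d, a difference of -1.17 that passed the interaction test (adjusted p = 0.036). Sqstm1 was 12.54, 13.00 and 12.11 at 3 d and 11.92, 11.91 and 11.87 at 5 d, with an interaction of -0.71 (adjusted p = 0.039). The time test called 0.626% of genes in Etidronate and 0.00444% of tests in the compounds other than it and Dicyclomine. With the batch block the Ctsl and Sqstm1 interactions were -1.09 and -0.72 and no longer passed (adjusted p = 0.0784 and 0.0764).

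In Phenytoin, an anticonvulsant, Gabarapl1 was 9.05, 9.46 and 9.39 at 3 d and 8.56, 8.34 and 8.25 at 5 d. The 3 d animals were above every control and the 5 d animals were within the control range. Over both times it differed by 0.67 (SE 0.17, adjusted p = 0.0295), and with the batch block by 0.80 (adjusted p = 0.00909), which was a call. That fit called 0.556% of genes higher in Phenytoin and 0.957% in Etidronate. Without the block the second Gabarapl1 probe set differed by 0.24 and was not called (adjusted p = 0.695 over all single-symbol probe sets). The time difference of the first probe set was -1.17 (adjusted p = 0.0739). Ctsl in Phenytoin differed by 0.67 (adjusted p = 0.0382) and Sqstm1 by 0.33 (adjusted p = 0.0188), and 5 of the 6 animals had Sqstm1 above every Water control. The second Ctsl probe set differed by 0.62 and the other Sqstm1 probe sets by 0.24, -0.10 and -0.003, none of them called. Ulk1 at 3 d was 9.17, 9.40 and 9.36, all above the highest control, and at 5 d 8.63, 8.47 and 8.79, all within the controls.

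Trimethadione, another anticonvulsant, had no call and 1 animal that stood apart. On 3 d replicate 2 Gpnmb was 11.36, Ctsl 12.41, Sqstm1 12.89 and Bnip3 12.68, and its Ulk1, at 8.24, was near the low end of the Water controls. The other 5 Trimethadione animals had Gpnmb from 6.85 to 8.55 and Bnip3 from 11.66 to 11.78. The compound's mean differences were 1.13 for Gpnmb (SE 0.46, adjusted p = 0.18) and 0.55 for Ctsl (SE 0.18, adjusted p = 0.0965). The second Ctsl probe set differed by 0.56 (SE 0.11, adjusted p = 0.00651 over all single-symbol probe sets). For it the p passed and the fold did not.

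Counted per animal, 9 of the 122 treated arrays had 5 members above every one of the 36 controls, and 62 had none. On those 9 arrays 6.31% to 14.4% of all genes were above every control, with a median of 11.7%, and on the other 113 treated arrays 0.717% to 17.3%, with a median of 3.43%. The 9 were Dicyclomine 3 d replicate 1 and both 5 d arrays, Atenolol 5 d replicates 2 and 3, Phenytoin 3 d replicates 2 and 3, Etidronate 3 d replicate 1 and Trimethadione 3 d replicate 2. Sqstm1, Bnip3, Ctsl and Gabarapl1 were among the 5 on all 9 arrays. The fifth gene was Gpnmb on both Dicyclomine 5 d arrays and the Trimethadione array, and Ulk1 on the other 6. Atenolol, a beta blocker whose arrays were all in batch D, without controls, had Ctsl at 12.15 and 12.17 on those 2 arrays and from 10.45 to 10.71 on the rest, and its mean difference of 0.41 (SE 0.22) was not called. A single-array view was chosen after the values were seen and is a description.

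The lowest changes of Sqstm1 and Bnip3 over the compounds were in Glyburide, a sulfonylurea, with all 5 arrays in batch D. Sqstm1 was 11.34 and 11.37 at 3 d and 11.50, 10.22 and 11.44 at 5 d, every array below the lowest CMC control at 11.52. The difference was -0.67 (SE 0.16, adjusted p = 0.0126), which missed the call over genes. Adjusted over all single-symbol probe sets the same value was called (adjusted p = 0.00809), as were a second Sqstm1 probe set at -1.03, a second Ulk1 probe set at -0.97 and a second Atg12 probe set at -1.24. The lowest value was on 5 d replicate 2, the array with the Gapdh difference of 3.02, and Bnip3 was 8.33 there beside 11.30 to 11.54 on the other 4. Without that array the Sqstm1 difference was -0.45, with the batch block -0.16 (adjusted p = 0.899), and against other compounds of the same batch -0.54 (adjusted p = 0.216).

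Ordered by change, Dicyclomine led for 5 members and was second for Ulk1 and last for Atg12. The gap between neighbours in that order was over 2 standard errors, taken as if compounds were independent, only between Dicyclomine and the compound after it, for Sqstm1 (0.69), Ctsl (0.85) and Gpnmb (1.95). All other neighbours, those of Bnip3, Gabarapl1, Ulk1 and Atg12 included, lay within 2 standard errors. This order is without the batch block. With the block the highest Gabarapl1 change was 1.175 and Dicyclomine was at 1.12, so another compound led for that member. Gpnmb was the member whose change was below 0 in most compounds, 16 of 21, with Gabapentin at -0.80, and it varied most between controls, with an SD of 0.79. In 15 of these 16 compounds the median change of the macrophage markers was also below 0, at -0.32 in Gabapentin with 1 of 18 above 0, -0.65 in Spironolactone and -0.57 in Buspirone, and the part of these cells in the Gpnmb values was not tested.

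Related compounds were given at unlike doses and are set side by side only. Oxybutynin, like Dicyclomine an antimuscarinic ester, at 230 mg/kg beside 645 mg/kg, had differences of -0.01 for Sqstm1, 0.17 for Bnip3, 0.16 for Ctsl, 0.11 for Gabarapl1 and -0.07 for Gpnmb, with 1 of its arrays in batch D. Its 3 d replicate 1 had Gpnmb at 9.39 and Ctsl at 11.34, above its other 5 arrays. For Sulpiride at 1000 mg/kg and Levosulpiride, its levorotatory form, at 1200 mg/kg, Gabarapl1 differed by 0.49 and -0.35, and the first was in batch A and the second in batch D. With the batch block Gabarapl1 was above 0 in all 21 compounds, Levosulpiride included, and lowest in Azaribine, at 0.05. The opposite signs of this pair were thus not kept.

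Neither vehicle nor sampling time moved any member past the threshold among controls. CMC minus Water was 0.46 for Gpnmb (SE 0.27) and 0.20 for Ctsl (SE 0.09), and 5 d minus 3 d was 0.46 for Gpnmb (SE 0.26) and 0.22 for Gabarapl1 (SE 0.10). In limma 0% of all genes passed an adjusted p of 0.05 in the vehicle comparison and 0% in the time comparison, while 1025 and 455 genes had an unadjusted p under 0.05.

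The wider pathway was read from 9 lists with 129 genes measured of 146 listed, 122 of them apart from the members. In Dicyclomine 7 of these 122 were called higher and 2 lower, beside 2.88% and 2.76% of all genes. Of the 122, 84 had a difference above 0, with a median of 0.16 beside 0.02 over all genes. In Etidronate 2 were called higher and 1 lower, with a median of -0.03, beside 0.872% of all genes higher and 2.48% in either direction. The largest rises in Dicyclomine were Gaa, the lysosomal glucosidase that breaks down glycogen, at 1.16 (adjusted p = 1.32e-05), Cd63, a membrane protein of late endosomes, at 1.06 (adjusted p = 0.000543), and Keap1, which holds NRF2 in the cytoplasm and is itself bound by p62, at 0.97 (adjusted p = 2.45e-05). The 2 falls were Ppargc1a, a coactivator of mitochondrial genes, at -0.90 (adjusted p = 0.00435), and Gla, the galactosidase, at -0.62 (adjusted p = 0.00362). Named after their values were seen, the other rises were Ctsf at 0.80, Slc17a5 at 0.79, Calcoco1 at 0.62 and Atg4a at 0.61. With the batch block 5 of the 122 were called higher in Dicyclomine, beside 2.15% of all genes, and 0 lower. Ppargc1a (-0.85, adjusted p = 0.0151), Gla (-0.52), Slc17a5 (0.72, adjusted p = 0.0129) and Calcoco1 (0.57) were no longer called.

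By list, with the members now counted in, 3 of 12 receptors and adaptors were called higher in Dicyclomine, with a median of 0.36. They were the members Sqstm1 and Bnip3, and Calcoco1. Of 12 conjugation and ATG8 genes 2 were called higher, the member Gabarapl1 and Atg4a, with a median of 0.19. Of all genes 2.88% were called higher. None of the 17 initiation genes was called, with 14 above 0, and none of the 16 vacuolar ATPase subunits, with 13 above 0. Of 13 lysosomal proteases 2 were called, Ctsl and Ctsf, while the median of the list was 0.00. In the list of other hydrolases 1 of 20 was called higher and 1 lower, and among 10 regulators likewise 1 and 1. None of the 12 fusion genes was called, with a median of 0.12. Calls in the lysosomal membrane list were 3 of 17, Gpnmb among them.

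**Figure D5:**
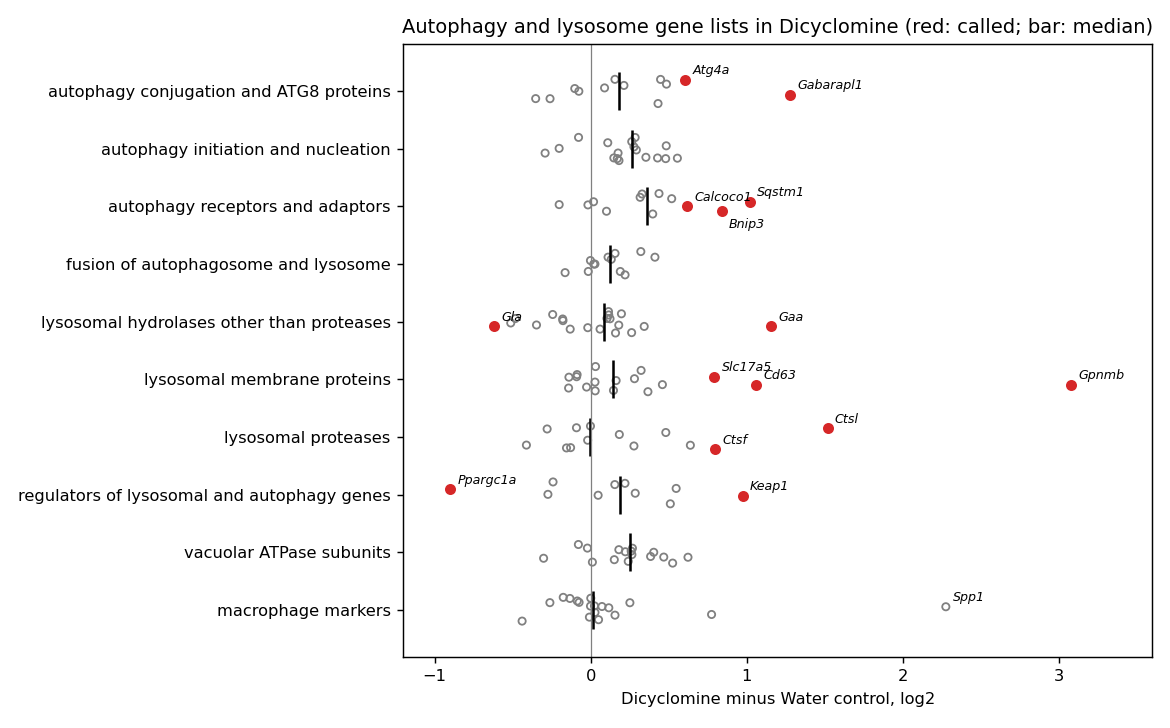
Log2 difference between Dicyclomine and Water controls for each measured gene of the 9 lists and of the macrophage markers, red where called, with the list median as a bar. Gpnmb at 3.08 lies farthest right, and no macrophage marker is red.

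Since Gpnmb and Ctsl are also known from macrophages, the 18 macrophage markers were read beside them. In Dicyclomine 0 of 18 were called and their median difference was 0.01. Csf1r differed by 0.05, Cd68 by 0.03 and C1qa by -0.09, and the mean level of the list was 6.92 and 7.11 at 3 d and 6.97 and 7.53 at 5 d, within the Water controls, which spanned 6.58 to 7.80. Farther from 0, and named after their values were seen, were Spp1, osteopontin, at 2.28 (adjusted p = 0.0448), Lgals3, galectin-3, at 0.78 (adjusted p = 0.058) and Mrc1, the mannose receptor, at -0.44 (adjusted p = 0.291). The 6 tendon markers were at or below the lower part of the controls, with a mean level of 6.42 to 6.69 beside 6.57 to 9.75 in Water controls, and 0 of them were called. Of the fibroblast markers 1 of 8 was called lower with a median of -0.60, of the red blood cell markers 2 of 4 with a median of -0.73, and of the endothelial markers 1 of 6 with a median of -0.28. No fat cell, neutrophil and mast cell or muscle fibre marker was called, with medians of 0.03, 0.10 and 0.00. For the fibre markers Pvalb, at -0.53 (adjusted p = 0.00532), and Casq1, at -0.36 (adjusted p = 0.0064), the p passed and the fold did not. Both were named after their values were seen, and 6 of the 13 fibre markers were above 0. The part of these cell types in the results was not tested. In bulk muscle, fewer cells of a type and less RNA per cell cannot be told apart.

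Foxo1 and Foxo3, factors that switch on autophagy genes in muscle, were each called higher in 4 compounds. Of all genes 1.14% were called in 4 compounds, in either direction, and 0.957% in 5. Foxo1 differed by 1.10 in Etidronate, 1.07 in Losartan, 0.85 in Gabapentin and 0.70 in Paroxetine, and the first 3 were also called with the batch block. Foxo3 differed by 0.83 in Etidronate and 0.78 in Losartan with both called under the block, and by 0.65 in Gabapentin and 0.69 in Atenolol. No member was called in Losartan, Gabapentin, Paroxetine or Atenolol. In Dicyclomine Foxo1 differed by 0.05 (adjusted p = 0.814) and Foxo3 by 0.55 (adjusted p = 0.00675), neither called. For Foxo3 the p passed and the fold did not, and with the block it differed by 0.53 (adjusted p = 0.0484). Atp6v0a1, a subunit of the proton pump, was called lower and Zkscan3, a repressor of autophagy genes, higher in the same 5 compounds, Atenolol, Chlorpropamide, Glyburide, Guanethidine and Levosulpiride, and no such call was left with the block. No call of Atg14 (3 compounds higher) or Bag3 (3 lower) was left with the block either. Atg14 then differed by 0.60 in Atenolol, 0.47 in Chlorpropamide and 0.70 in Glyburide, beside 0.68, 0.60 and 0.76 without the block. Bag3 then differed by -0.25 in Atenolol, -0.48 in Glyburide and -0.02 in Levosulpiride, beside -0.84, -1.07 and -0.61. Atg4a kept its call in Dicyclomine and lost that in Levosulpiride. Calcoco1, a receptor for reticulum fragments, was called higher in Dicyclomine, at 0.62, and lower in Glyburide, at -0.71, and neither call was left with the block.

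The genes whose levels followed each member most closely were found over all arrays after the mean of each batch was subtracted. For Sqstm1 they were Nploc4 (r = 0.89, 0.90 as deposited), Gaa (0.87 and 0.87) and Psma5 (0.87 and 0.89). Bnip3 went with Hibadh (0.89 and 0.90), Fyco1 (0.89 and 0.85) and Tmem64 (0.86 and 0.86). The arrays with a Gapdh difference above 1 were included, with Bnip3 at 8.33, 9.28 and 9.55 there and Sqstm1 at 10.22, 10.60 and 10.73. How far the r of any member rests on those arrays was not tested. Nploc4 and Psma5 are parts of ubiquitin-dependent protein breakdown, and Fyco1 is an adaptor that moves autophagosomes. Ctsl went with Ube4a (0.80 and 0.78), LOC102549726 (0.79 and 0.77) and Pnpla2 (0.78 and 0.79), and Gabarapl1 with Pnpla2 (0.80 and 0.78), Atg13 (0.79 and 0.81) and Fbxo32 (0.74 and 0.76). Pnpla2 encodes the main fat cell lipase, also present in muscle, and Fbxo32 the ubiquitin ligase atrogin-1. For Ulk1 they were Slc25a42, Calcoco1 and Mlycd (r 0.70 each), for Atg12 Tmbim6 (0.78), Ldha (0.74) and Kat2b (0.73), and for Gpnmb Gpx3 (0.77), Cd63 (0.77) and Ogfrl1 (0.73). Without the 4 Dicyclomine arrays the r of Gpnmb with these was 0.74, 0.69 and 0.63.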

How the data were processed

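The authors deposited 1 log2 value per probe set and array, made by RMA per the submitters' processing notes, which corrects background, equalises arrays and summarises probes, and so compresses changes of dim transcripts. The study's methods name the frozen form of RMA, and the sources used here give neither a version nor the set of arrays processed jointly. Of 31099 probe sets 20826 carried 1 gene symbol in the platform annotation, and each of 14217 genes was read from its brightest.

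Each compound was compared with all controls of its vehicle in limma 3.58.1 (R 4.3.3) with time as a covariate, and p-values were adjusted over all genes. Further fits tested time by treatment, vehicle and time in controls, and batch. Scripts were tested on simulated data. Replicates are separate animals numbered in order of deposit. The number of arrays limits precision. For 1 array the labels had conflicting times, and it was grouped as 3 d.

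Members, lists and tests were chosen with earlier results of these data known. Named were all members, the largest called list genes, the 8 list genes called most often (ties taken in alphabetical order), and 3 closest genes per member. Promoter windows are from RefSeq, which held all 7 genes.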

Additional observations from a re-analysis of the deposited data

Results flagged for a closer look

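Dixon's test of the farthest array was run for 7 genes in 5 control groups, 35 tests, and picked 3, and chance picks about 1 in 20. Ctsl was 10.92 on the highest of 7 CMC 3 d controls, with the next at 10.61, and 10.76 on the highest of 9 Water 3 d controls, with the next at 10.44. Atg12 was 7.86 on the lowest of 9 Water 5 d controls, with the next at 8.49.

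Of 147 pairs, 3 differed between 3 d and 5 d. Gpnmb in Dicyclomine changed by 3.42 more at 5 d (adjusted p = 0.0111), on 2 animals per time. In Etidronate Ctsl changed by -1.17 (adjusted p = 0.036) and Sqstm1 by -0.71 (adjusted p = 0.039).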

How the results depend on the processing

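No called value changed sign under any alternative run or when 1 array was left out. The number of calls over all compounds was 6, with 0 within shared extraction batches and 13 at an adjusted p of 0.05 with no minimum fold, and 5 to 7 when 1 array was left out. Of all genes, 0 were called within shared batches in Dicyclomine and 142 in Etidronate. The share of all genes at an adjusted p of 0.05 is not given here, so counts of members under that rule have no share beside them. Dicyclomine had 5 calls, 0 within shared batches and 5 to 5 with 1 array left out. Without single arrays its called values ran from 0.85 to 1.29 (Sqstm1), 0.73 to 1.07 (Bnip3), 1.33 to 1.94 (Ctsl), 0.81 to 1.63 (Gabarapl1) and 2.32 to 3.71 (Gpnmb).

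Etidronate had 1 call, 0 within shared batches, where Gabarapl1 was 0.83 (adjusted p = 0.0111), 2 with the array median subtracted (Bnip3 added), 4 at an adjusted p of 0.05, and 0 to 2 with 1 array left out. Without 5 d replicate 2 Bnip3 was called (0.59, adjusted p = 0.00162), and without 5 d replicate 3 Ctsl (0.72, adjusted p = 0.00895). With the mean of all probe sets of a gene, Ctsl in Etidronate was called (0.74) in place of Gabarapl1 (0.61, adjusted p = 0.015), and Glyburide gained 1 call, Ulk1, at -0.66. Glyburide, with 0 calls, had 1, Sqstm1, with the array median subtracted, with no time covariate, at an adjusted p of 0.05, and without CMC control 5 d replicate 2 (-0.71, adjusted p = 0.00869), so 0 to 1 with 1 array left out. Phenytoin had 0 calls, 1 with the batch block and 3 at an adjusted p of 0.05. Trimethadione had 0, and 1, Gabarapl1 (0.64, adjusted p = 0.00941), without 5 d replicate 3, so 0 to 1. The time by treatment test passed 3 members, 1 with the batch block. The cause of these shifts was not tested.

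The other planned settings were hybridization period as a block, quantile normalization, a level filter, an intensity trend, the methods' t-test, the array of conflicting time left out or moved, and 3' biased arrays left out. None of these moved a count of members called in a compound by more than 1.5 times. No paired analysis was possible because replicate numbers only follow the order of deposit. Without detection calls in the values, how far low probe sets stood above background is not known. Against other compounds of the same batches, run for compounds without batch controls, 0 members were called. The share of all genes called in that comparison is not given here.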
